A study of Mus musculus with 30 samples.

Results

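The NRF2 antioxidant genes described here are a set of 10 genes of oxidant defence: Nfe2l2, Keap1, Nqo1, Hmox1, Gclc, Gclm, Txnrd1, Srxn1, Sod2 and Cat. They were found by symbol among the 56951 gene symbols of the tables. All 10 lay on 1 row each, and all 10 passed the limits for testing (on average more than 20 reads and more than 0.5 FPKM), as did 12030 genes in all. FPKM is the number of fragments per kilobase of exon, scaled by the library's total.

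RNA of the gastrocnemius, a fast calf muscle from which the plantaris was not separated, was measured in male wild-type C57BL/6J mice, 1 library per mouse. The 14 mice of the LD group lived under a fixed cycle of 12 h light and 12 h dark, and the 16 mice of the ADV group under a light-dark cycle that was moved 8 h earlier every 4 days, a model of chronic jet lag. All were housed singly with a running wheel, entered the schedules at an age of 14 weeks and stayed on them for 64 weeks. Muscles were taken in the light period, at hours that differed between mice and are not used here, on days when the cycle of the ADV mice stood in the same position as that of the LD mice.

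NRF2, the protein of Nfe2l2, is a transcription factor that is bound by KEAP1 and marked for breakdown through the ubiquitin ligase scaffold CUL3. Oxidants and electrophiles modify cysteines of KEAP1, NRF2 then accumulates, pairs with small MAF proteins and binds antioxidant response elements in front of genes for glutathione synthesis, thioredoxin reduction, quinone reduction and heme breakdown. In skeletal muscle the pathway is known for its part in the handling of peroxides made during contraction. Because KEAP1 acts on the NRF2 protein, the mRNA of Nfe2l2 is not a measure of NRF2 activity.

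Sequence in front of the first exon is shown for the members that rose, Srxn1 and Txnrd1, for the pathway's own factor and, as a member that holds element letters and did not pass the test, for Gclm, with matches in capitals. The core letters of the antioxidant response element, TGACNNNGC, and of the AP-1 site, TGACTCA, were searched on both strands in the 1000 bases before the annotated start of each transcript in GRCm39, together with the E-box, CACGTG, to which the clock factors CLOCK and BMAL1 bind. Genomic sequence is given 5′ to 3′ on the strand of the gene. Capitals that do not read as the letters above are matches on the other strand.

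Srxn1 (chr2:151947317-151947432, plus strand): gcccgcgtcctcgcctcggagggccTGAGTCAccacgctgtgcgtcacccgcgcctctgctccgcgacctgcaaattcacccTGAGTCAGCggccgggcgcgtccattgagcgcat

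Txnrd1 (chr10:82694923-82694981, plus strand): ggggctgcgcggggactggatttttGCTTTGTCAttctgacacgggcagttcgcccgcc

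Nfe2l2 (chr2:75535214-75535272, minus strand): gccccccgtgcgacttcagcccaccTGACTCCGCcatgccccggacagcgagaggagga

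Gclm (chr3:122039047-122039105, plus strand): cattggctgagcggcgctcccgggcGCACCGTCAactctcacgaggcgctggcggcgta

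The Srxn1 sequence held AP-1 letters at 102 and at 45 bases before the start. The match at 45 bases also fitted TGANTCAGC, another form of the antioxidant response element that was searched after the data were seen. Srxn1 had 0 matches to the core letters TGACNNNGC. Txnrd1 held the core letters of the antioxidant response element at 65 bases and, outside the stretch shown, at 371 bases before its start. Nfe2l2 held them at 262 bases, Gclm at 134 bases and Sod2 at 680 bases. The core letters were thus in front of 4 of the 10 members and of 31.2% of the 12028 genes whose window could be read. The AP-1 letters were in front of 1 member, Srxn1, and of 13.3% of genes, and TGANTCAGC in front of 1 member and of 3.23% of genes. E-box letters stood in front of 2 members, Hmox1 at 46 bases and Nfe2l2 at 704 bases, and of 19.2% of genes. These are matches of letters in a window, and they were not tied to any measurement of binding.

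Between 18875468.5 and 28512674 reads were counted on exons per library. These were 90.91 to 91.30% of the library's total in LD and 91.14 to 92.67% in ADV, with the highest share in ADV mouse 34. The part of this share in the group differences was not tested. All 10 markers of skeletal muscle, among them Acta1 and Ckm, were abundant and 0 of 10 passed the test between the groups with edgeR or DESeq2 (2 at an unadjusted p under 0.05). The libraries of LD mice 23 and 33 stood apart in slow fiber genes, with a summed FPKM of 60.1 and 143 where the other libraries lay at 329 or more, and ADV mouse 24 had the highest sum of all (2264). LD mouse 33 also had the highest summed FPKM of 10 macrophage markers (392). Without these 3 mice Srxn1 and Txnrd1 were called as before and Gclc was called as well (log2 fold change 0.28, edgeR FDR = 0.0408).

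**Figure D1:**
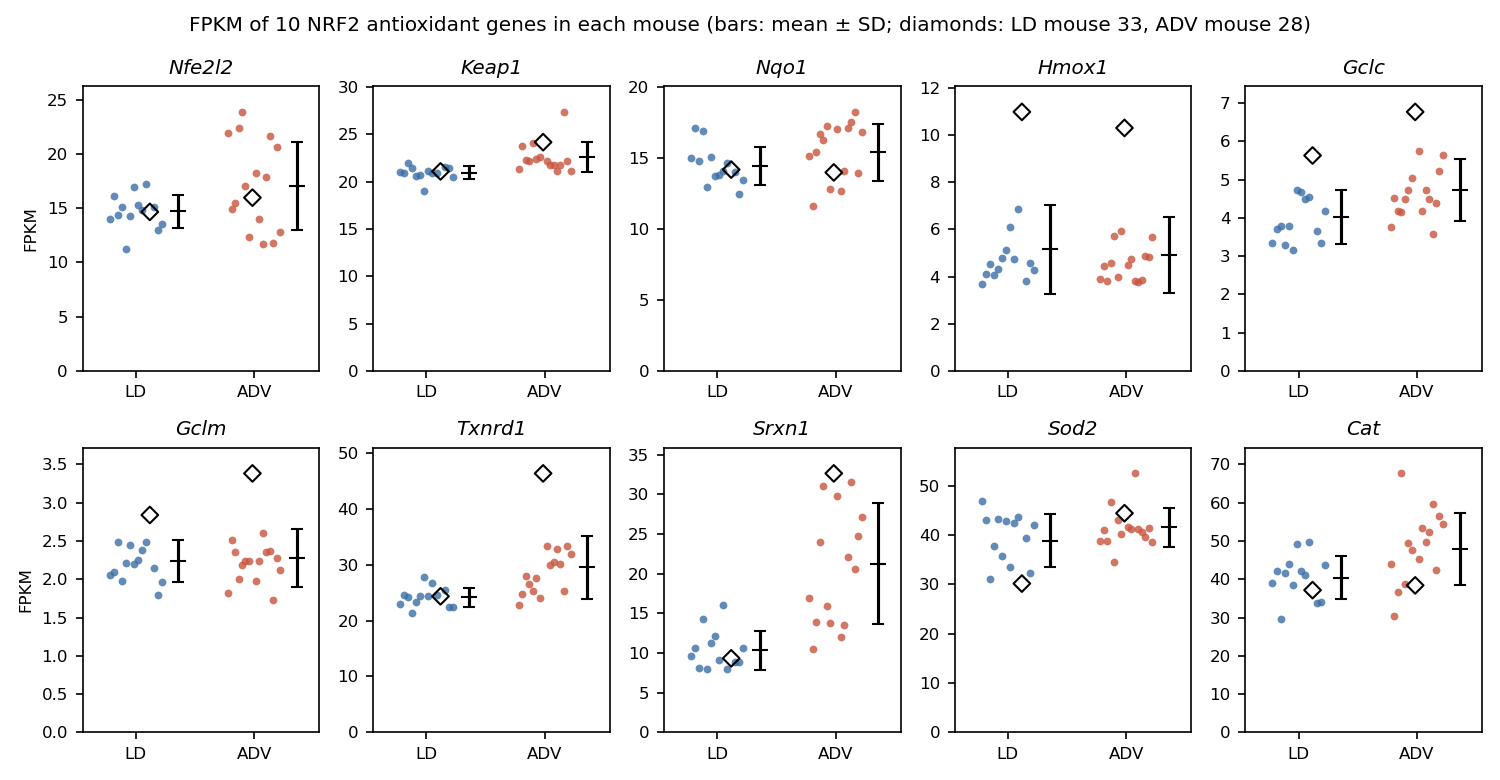
FPKM of each of the 10 genes (vertical axes, from 0) in the 14 LD and 16 ADV mice, 1 point per mouse, with the mean and SD as bars and LD mouse 33 and ADV mouse 28 as open diamonds. Srxn1 and Txnrd1 lie higher in ADV, Hmox1 overlaps throughout, and the 2 marked mice hold the highest Hmox1 of their groups (10.98 and 10.3 FPKM).

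Srxn1 and Txnrd1, both of the thioredoxin and peroxiredoxin branch, were higher in the ADV group, and the other 8 members did not pass the test. The fitted fold change was above 1 for 9 of 10 members, against 51% of all genes. With edgeR's quasi-likelihood test and Benjamini-Hochberg adjustment over all 12030 genes, 2 of 10 members were higher at an FDR under 0.05, beside 5.72% of genes tested, and 0 were lower, beside 5.09%. At an unadjusted p under 0.05 the edgeR test counted 5 members, all of them higher in ADV, beside 29.9% of genes in either direction. DESeq2 counted 6, beside 30.3% of genes in either direction. DESeq2 called 2 members higher at an FDR under 0.05, Srxn1 and Txnrd1, beside 7.25% of genes, and 0 lower, beside 6.66%. With the study's additional limit of a 1.3-fold change 1 member was higher, Srxn1, beside 1.43% of genes, and 0 lower, beside 0.59%. The FPKM of the groups overlapped in every member, so that 0 of 10 were separate, beside 0.00831% of genes. Less RNA per cell and fewer cells of a type cannot be told apart in whole muscle.

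Srxn1 encodes sulfiredoxin, which restores peroxiredoxins that peroxide has over-oxidized. Its FPKM ran from 7.94 through a median of 9.48 to 16.1 in LD and from 10.5 through a median of 21.3 to 32.6 in ADV. All 16 ADV mice lay above the LD median and 10 of 16 above the highest LD mouse, so the groups overlapped between 10.5 and 16.1 FPKM. The mean rose from 10.3 ± 2.43 (SD, n = 14) to 21.3 ± 7.63 FPKM (SD, n = 16), a log2 fold change of 1.02 (SE 0.163), or 2.03-fold with a 95% confidence interval of 1.62 to 2.56. It was the gene with rank 8 by p among all 12030 (edgeR, FDR = 0.000931). Leaving out any 1 mouse kept the log2 fold change between 0.97 and 1.08.

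Txnrd1 encodes the cytosolic thioredoxin reductase, a selenoprotein that keeps thioredoxin reduced with NADPH. LD mice lay between 21.4 and 27.7 FPKM with a median of 24.4, and ADV mice between 22.8 and 46.3 with a median of 28.9. ADV mouse 28 alone was above 33.4 FPKM, while 14 of 16 ADV mice were above the LD median and 9 above the LD maximum. Its mean was 24.2 ± 1.7 FPKM in LD and 29.5 ± 5.65 in ADV, a rise of 0.27 on the log2 scale (SE 0.069), or 1.21-fold with a 95% interval of 1.09 to 1.33 (edgeR, FDR = 0.0135). Without ADV mouse 28 the log2 fold change was 0.22, the lowest of the fits that left out 1 mouse, and all of those fits kept it at an FDR of 0.0232 or less.

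**Figure D2:**
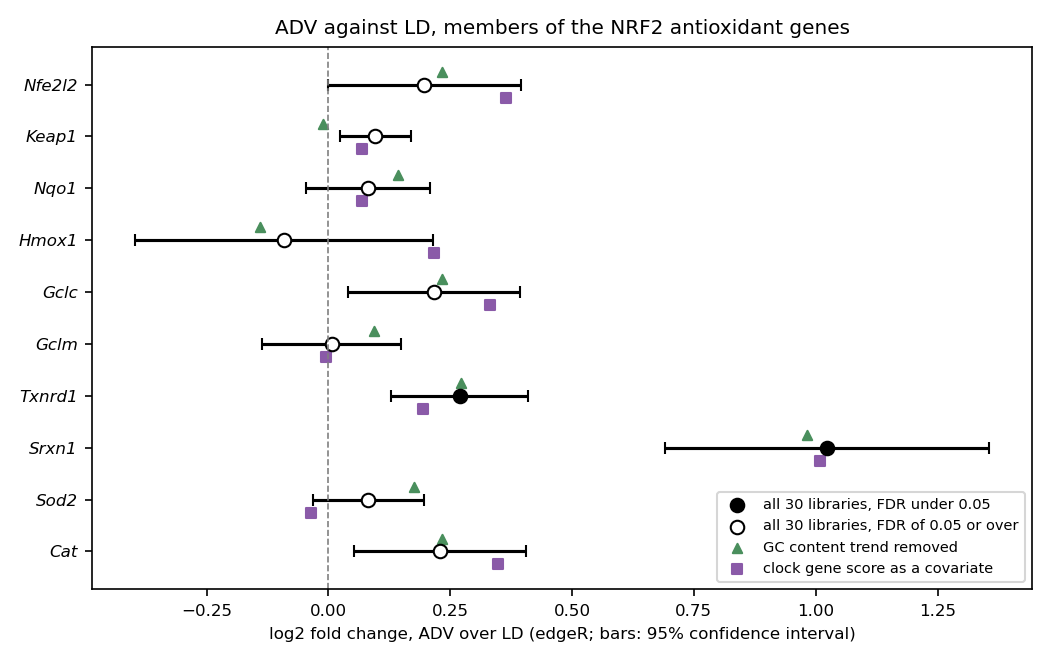
Log2 fold change of ADV over LD for the 10 genes from edgeR with 95% confidence intervals (circles, filled where the FDR was under 0.05), and the same after removal of a GC content trend (triangles) and with a clock gene score as a covariate (squares). Srxn1 stands at 1.02, the others between -0.092 and 0.27, and Keap1 moves to -0.012 after GC removal.

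Nfe2l2, the gene of NRF2, did not pass the test (edgeR, FDR = 0.169) and spread widely among ADV mice. It ran from 11.3 through 14.8 to 17.2 FPKM in LD and from 11.7 through 16.5 to 23.9 in ADV, with 7 of 16 ADV mice above the highest LD mouse and others close to the lowest LD mouse. Means were 14.7 ± 1.54 FPKM in LD and 17 ± 4.08 in ADV, and the log2 fold change of 0.20 (SE 0.097) had a 95% interval from -0.001 to 0.40.

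Keap1, the repressor of NRF2, had the narrowest distribution of the 10 genes and a small shift. LD mice lay between 19.1 and 22 FPKM around a median of 21, and ADV mice between 21.1 and 27.4 around a median of 22.2. In FPKM all 16 ADV mice exceeded the LD median and 10 exceeded every LD mouse. Of these 10, ADV mice 23, 24, 27 and 35 fell below the highest LD mouse on another scale. On log2 CPM, scaled by library size after TMM normalization, they had 6.25, 6.174, 6.199 and 6.241, and LD mouse 35 had 6.288. The means of 21 ± 0.679 and 22.7 ± 1.58 FPKM gave a log2 fold change of 0.096 (SE 0.036), with an FDR of 0.0704 in edgeR. In the permutation test of rank sums on FPKM, adjusted over all genes, Keap1 had an FDR of 0.00241. That test called 3 members, Keap1, Txnrd1 and Srxn1, beside 9.7% of genes tested. After a trend with transcript GC content was removed from each library, the log2 fold change of Keap1 was -0.012 (SE 0.03, edgeR FDR = 0.847), so its direction depends on that step. Antisense lncRNAs, Gm68155 and Gm16754, share 18.5% and 15.9% of the exon bases of Keap1, and whether the counting used the strand is not given in the sources used here.

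Nqo1, a quinone reductase often used as a marker of NRF2 activity, ran from 12.5 through 14.1 to 17.1 FPKM in LD and from 11.6 through 15.8 to 18.2 in ADV. The ADV range enclosed the LD range, with 10 of 16 ADV mice above the LD median. The log2 fold change was 0.081 (SE 0.063, 95% interval -0.047 to 0.21, edgeR FDR = 0.395).

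Hmox1 encodes heme oxygenase, which opens the heme ring and is abundant in macrophages that take up red cells. Values ran from 3.7 through 4.56 to 11 FPKM in LD and from 3.78 through 4.53 to 10.3 in ADV. In each group 1 mouse stood far above the rest, LD mouse 33 and ADV mouse 28, and the next highest values were 6.87 in LD and 5.93 in ADV. The means of 5.15 ± 1.89 and 4.92 ± 1.6 FPKM gave a log2 fold change of -0.092 (SE 0.15, 95% interval -0.40 to 0.21, edgeR FDR = 0.714). Without LD mouse 33 it was 0.055.

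Gclc and Gclm encode the catalytic and the modifier subunit of glutamate-cysteine ligase, which makes the rate-limiting step of glutathione synthesis. Gclc ran from 3.15 through 3.79 to 5.63 FPKM in LD and from 3.57 through 4.51 to 6.77 in ADV, and 14 of 16 ADV mice were above the LD median. Its log2 fold change was 0.22 (SE 0.087, 95% interval 0.04 to 0.39) with an FDR of 0.0939 in edgeR. Without LD mouse 33, the highest LD mouse, the FDR was 0.0327 and the log2 fold change 0.27. Gclm ran from 1.79 through 2.21 to 2.84 FPKM in LD and from 1.73 through 2.24 to 3.38 in ADV, with nearly the same mean (2.24 ± 0.271 and 2.28 ± 0.375). Its log2 fold change of 0.007 (SE 0.07) had a 95% interval of -0.136 to 0.149 (edgeR, FDR = 0.961), which leaves room for changes of up to 1.11-fold.

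Sod2, the superoxide dismutase of mitochondria, and Cat, the catalase of peroxisomes, were the most abundant members per length. Sod2 lay between 30.2 and 47 FPKM with a median of 40.7 in LD and between 34.5 and 52.5 with a median of 41.2 in ADV. Its log2 fold change was 0.082 (SE 0.056, 95% interval -0.032 to 0.20, edgeR FDR = 0.328), and 0.17 with an FDR of 0.0405 after the GC trend was removed. Cat ran from 29.6 through 41.5 to 49.8 FPKM in LD and from 30.5 through 48.5 to 67.7 in ADV, where 6 mice exceeded every LD mouse. The mean of Cat was 40.4 ± 5.64 FPKM in LD and 47.9 ± 9.48 in ADV, and its log2 fold change of 0.23 (SE 0.086) had an FDR of 0.0766 in edgeR. Without ADV mouse 22, the lowest ADV mouse in Cat, that FDR was 0.0304, and without ADV mouse 23 it was 0.0489.

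The members differed in how much mice of 1 group varied. In LD the coefficient of variation of FPKM was 3.24% for Keap1, 7.01% for Txnrd1, 10.5% for Nfe2l2, 23.5% for Srxn1 and 36.7% for Hmox1. In ADV it was 6.99% for Keap1, 19.2% for Txnrd1, 23.9% for Nfe2l2, 35.9% for Srxn1 and 32.6% for Hmox1. The SD of log2 CPM (counts scaled by library size after TMM normalization) was larger in ADV for 7 of 10 members, beside 62.7% of all genes. A permutation test on the distances from the group median, adjusted over 12030 genes, called 0 members and 0% of genes. At an unadjusted p under 0.05 it counted 5 members, beside 6.36% of genes. These were Nfe2l2 (SD 0.156 in LD and 0.351 in ADV, permutation p = 0.00159), Txnrd1 (0.0981 and 0.247, permutation p = 0.00428), Srxn1, Nqo1 and, with the wider spread in LD, Sod2 (0.189 and 0.118, permutation p = 0.0494).

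Correlations between members were computed over the mice of each group on log2 CPM, 45 pairs per group and 90 relations in all. After adjustment over the 90 relations 0 pairs passed an FDR of 0.05, by r or by rho, and at an unadjusted permutation p under 0.05 there were 7 by r in LD and 6 in ADV. The share of all gene pairs under that p was not computed. A Pearson r of 0.5 or more was reached by 5 of 45 member pairs in LD, beside 7.63% of all gene pairs, and by 6 of 45 in ADV, beside 7.15%. An r of -0.5 or less was reached by 2 pairs in LD, beside 7.44% of gene pairs, and by 0 in ADV, beside 6.65%. The median r over the member pairs was 0.128 in LD and 0.097 in ADV, where the median over all gene pairs was -0.001 and -0.003.

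Over all mice Hmox1 and Gclc had the highest r of the 45 pairs in both groups. In LD r was 0.821 (permutation p = 0.00069) and rho 0.684 (p = 0.00888), with an FDR of 0.0621 for r. In ADV r was 0.697 (permutation p = 0.00211) and rho 0.615 (p = 0.0133), with an FDR of 0.0824. Leaving out the 2 mice farthest from the median of Hmox1 gave r of 0.633 and 0.583. Without LD mouse 33 and ADV mouse 28 the pair had r of 0.665 in LD (permutation p = 0.0117, rho = 0.604, p = 0.0328, FDR = 0.309) and 0.541 in ADV (permutation p = 0.0381, rho = 0.532, p = 0.0455, FDR = 0.473), and Nqo1 with Srxn1 was then the highest pair in ADV (r = 0.744, permutation p = 0.00187, rho = 0.632, p = 0.0133, FDR = 0.168, r = 0.606 without the 2 farthest mice). With the GC trend removed, which was tried after the data were seen, the pair had r of 0.822 and 0.745 and an FDR of 0.0333 in both groups in the same permutation test.

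Of the other pairs with high r, some fell without their farthest mice and some did not. Hmox1 and Gclm had r of 0.779 in LD (permutation p = 0.00293, rho = 0.6, p = 0.0261, FDR = 0.0824) and 0.359 without the 2 farthest mice. Gclm and Txnrd1 had r of 0.639 in ADV (permutation p = 0.00866, rho = 0.356, p = 0.178, FDR = 0.13) and 0.332 without them. Gclc and Txnrd1 had r of 0.674 in ADV (permutation p = 0.00428, rho = 0.565, p = 0.0245, FDR = 0.0824) and 0.659 without them. Keap1 and Sod2 had an r of -0.694 in LD (permutation p = 0.00458, rho = -0.719, p = 0.00514, FDR = 0.0824) and of -0.757 without the 2 farthest mice. With the GC trend removed, Keap1 and Sod2 had r of -0.478 in LD (permutation p = 0.0854, rho = -0.442, p = 0.116, FDR = 0.427). Without the 2 farthest mice it was then -0.333. The pairs named before it in this paragraph had r of 0.815, 0.556 and 0.668 after that removal, in the same order.

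**Figure D3:**
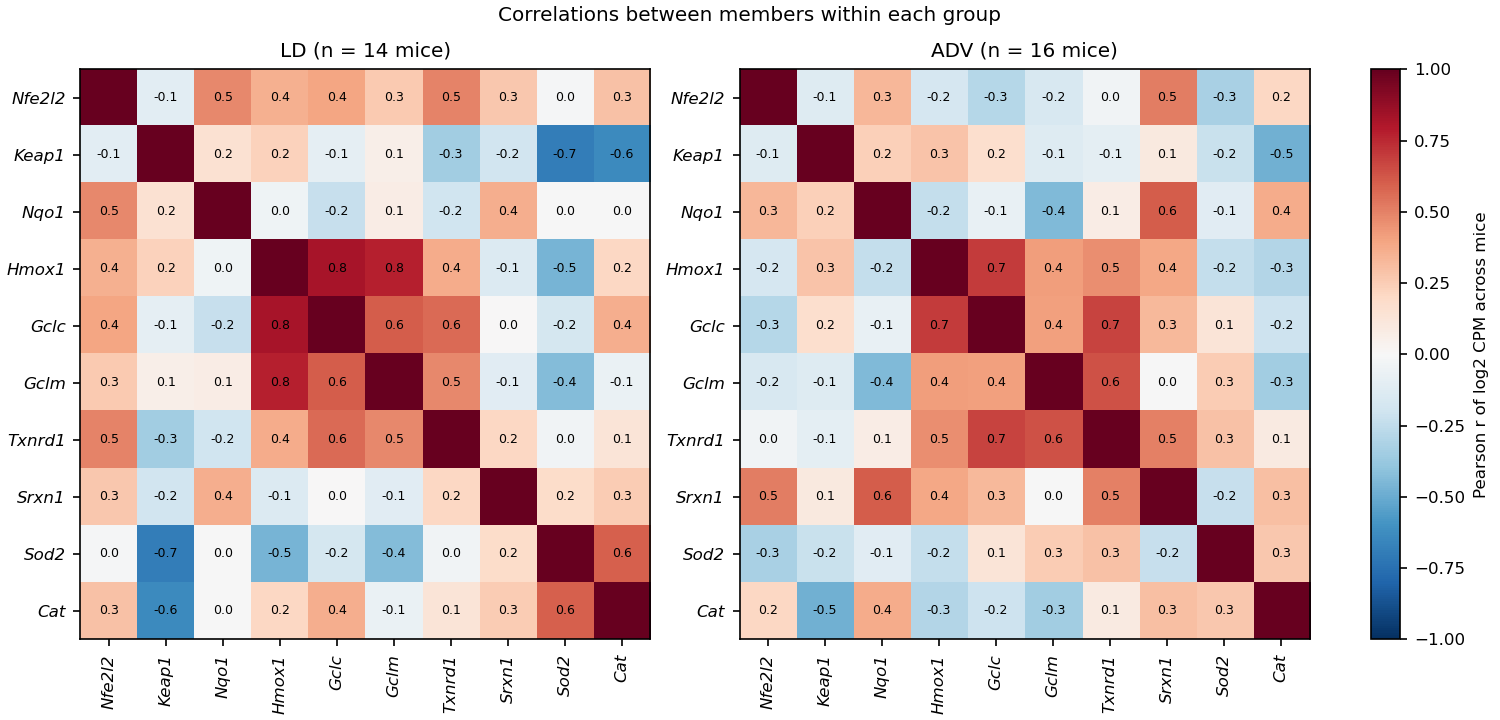
Pearson r of log2 CPM between the 10 genes over the 14 LD mice (left) and the 16 ADV mice (right), with the colour from -1 (blue) to 1 (red) and the value in each cell. Over all mice Hmox1 with Gclc is the highest cell of both panels (0.821 and 0.697), and Keap1 with Sod2 the lowest in LD (-0.694).

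Some mice were highest in several members at once. The share of all tested genes in which these mice were highest was not counted. ADV mouse 28 had the highest FPKM of its group in 5 of the 10 genes, Hmox1 (10.3 FPKM), Gclc (6.77), Gclm (3.38), Txnrd1 (46.3) and Srxn1 (32.6). On the TMM-normalized log2 CPM scale it led in 4 of these, and in Srxn1 it (6.571) came after ADV mice 25 (6.648) and 33 (6.575). It was not high in Nfe2l2 (16 FPKM), Nqo1 (14) or Cat (38.4). LD mouse 33 had the highest FPKM of its group in Hmox1 (11), Gclc (5.63) and Gclm (2.84) and the lowest in Sod2 (30.2), and had 14.7 FPKM of Nfe2l2 and 9.33 of Srxn1. With both mice left out Srxn1 and Txnrd1 were still called, and Gclc had a log2 fold change of 0.23 (SE 0.075) and an FDR of 0.0495 in edgeR.

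Relations of the members with other genes were computed with 9 summary measures, the mean log2 CPM of 7 marker lists and of a list of immediate early and heat shock genes, and a clock gene score, in 180 relations over both groups. The immediate early and heat shock list holds Fos, Atf3, Egr1, Hspa1a, Hspb1 and others that cells raise within minutes to hours of a stimulus, and 8 of its 11 tested genes were higher in ADV (edgeR, FDR under 0.05). Its summed FPKM ran from 112 to 196 in LD and from 123 to 642 in ADV.

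Nfe2l2 rose and fell with this list among ADV mice, with r of 0.803 (permutation p = 0.00015, FDR = 0.027), rho of 0.838 (p = 0.0001, FDR = 0.018) and r of 0.716 without the 2 farthest mice. In LD mice, r was 0.338 (permutation p = 0.238) and rho 0.231 (p = 0.427); the difference between the groups was not tested. Srxn1 had r of 0.736 in ADV (permutation p = 0.00093, FDR = 0.058), rho of 0.788 (p = 0.00043, FDR = 0.0354) and r of 0.645 without the 2 farthest mice. In LD it had r of 0.743 (permutation p = 0.00299, FDR = 0.0897), rho of 0.732 (p = 0.00397) and r of 0.52 without them. Txnrd1 did not follow the list, with r of 0.064 in ADV (permutation p = 0.815, rho = 0.162, p = 0.549) and 0.081 in LD (permutation p = 0.783, rho = 0.13, p = 0.66). The part of these genes in the group difference of Srxn1 was not tested.

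**Figure D4:**
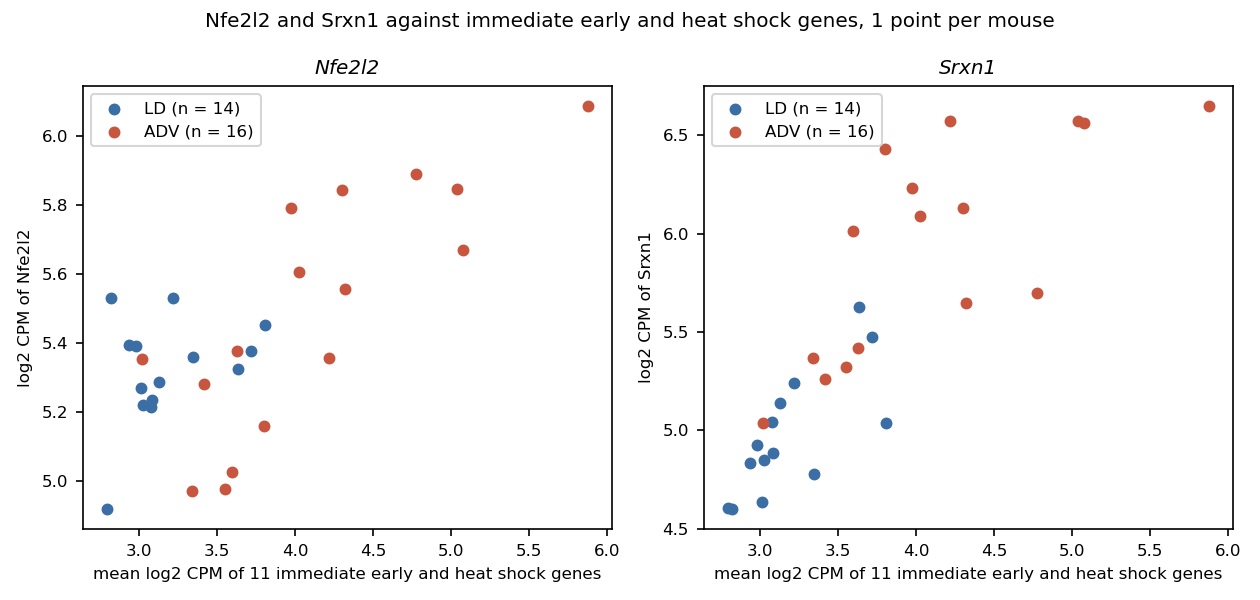
Log2 CPM of Nfe2l2 (left) and Srxn1 (right) against the mean log2 CPM of 11 immediate early and heat shock genes, 1 point per mouse, LD in blue and ADV in red. The points of Srxn1 slope upward in both groups (r of 0.743 in LD and 0.736 in ADV), those of Nfe2l2 in ADV (r of 0.803).

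Of the 180 relations 29 had an unadjusted permutation p under 0.05 by r, a share that was not computed for other genes. At an FDR under 0.05 there was 1 by r, that of Nfe2l2 in ADV. By rho there were 3, the relations of Nfe2l2 and Srxn1 in ADV given above and that of Hmox1 with the clock gene score in LD (rho = -0.815, permutation p = 0.00059, FDR = 0.0354). The latter had r of -0.659 (permutation p = 0.00686, FDR = 0.144) and -0.824 without the 2 farthest mice, and in ADV r of 0.273 (permutation p = 0.264) and rho of 0.229 (p = 0.392). For Sod2 in LD and Cat in ADV the highest r was that with slow fiber genes. In LD Sod2 had r of 0.764 with them (permutation p = 0.00129, rho = 0.644, p = 0.0153, FDR = 0.058), and 0.488 without the 2 farthest mice, LD mice 23 and 33. With the macrophage list Sod2 in LD had r of -0.712 (permutation p = 0.00296, FDR = 0.0897) and -0.657 without these 2 mice. There rho was -0.798 (permutation p = 0.00126, FDR = 0.0567). In ADV Cat had r of 0.737 (permutation p = 0.00113, rho = 0.568, p = 0.0239, FDR = 0.058), and 0.452 without the 2 farthest. Hmox1 in LD had its highest r with the macrophage list (r = 0.732, permutation p = 0.00923, rho = 0.376, p = 0.184, FDR = 0.151, r = 0.654 without the 2 farthest mice). The r of Txnrd1 in ADV that was largest in size was that with the adipocyte list, -0.624 (permutation p = 0.00958, FDR = 0.151). There rho was -0.735 (permutation p = 0.00171, FDR = 0.0616), and r without the 2 farthest mice -0.615. In LD this r was -0.037 (permutation p = 0.9, rho = 0.033, p = 0.915).

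Markers of other cell types were counted in the same fit. With edgeR 0 of 10 macrophage markers were called (4 at an unadjusted p under 0.05, and 1 called by DESeq2), with a summed FPKM of 117 to 392 in LD and 110 to 215 in ADV. Of 6 Schwann cell markers edgeR called 0 (4 at an unadjusted p under 0.05) and DESeq2 3, with all 6 fitted higher in ADV and a summed FPKM of 27.7 to 50.5 in LD and 29.5 to 86.7 in ADV. Of 5 erythroid markers 0 were called by edgeR or DESeq2 (2 at an unadjusted p under 0.05), with sums of 70.1 to 136 and 85.3 to 146. Of 8 slow fiber markers 0 were called by either tool and 0 had an unadjusted p under 0.05, with sums of 60.1 to 1192 and 329 to 2264. Of 8 adipocyte markers 1 was higher by edgeR and 2 by DESeq2 (5 at an unadjusted p under 0.05), with a summed FPKM of 632 to 1198 in LD and 700 to 1728 in ADV. Of 8 endothelial markers 3 were higher by either tool (4 at an unadjusted p under 0.05), with sums of 81.6 to 110 and 94.1 to 129. Of 8 fibroblast markers 1 was lower by either tool (4 at an unadjusted p under 0.05), with sums of 290 to 381 and 253 to 402. By fitted fold change 8 of 8 slow fiber, 8 of 8 adipocyte, 7 of 8 endothelial and 4 of 5 erythroid markers were also higher in ADV. Of macrophage markers 9 of 10 were fitted lower and of fibroblast markers 7 of 8, where 51% of all genes were fitted higher. The median log2 fold change was 0.455 for slow fiber, 0.442 for adipocyte and -0.272 for macrophage markers. None of the lists had a defining marker at 0 in every library. The part of these cells in the values of Srxn1 and Txnrd1 was not tested.

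The clock genes differed between the groups at the time of killing. Of 7 genes that peak opposite to Bmal1, such as Dbp and Nr1d1, 7 were lower in ADV, and of 5 that peak with Bmal1 3 were higher (edgeR, FDR under 0.05). A score of the difference between both kinds ran from -3.17 to 1.1 in LD and from -1.33 to 2.3 in ADV, so schedule and score are partly confounded. With the score as a covariate edgeR called 0 of 10 members and 0 of 12030 genes at an FDR under 0.05, and counted 4 members and 1418 genes at an unadjusted p under 0.05. The log2 fold change of Srxn1 was then 1.01 (SE 0.25, FDR = 0.196) and that of Txnrd1 0.20 (SE 0.104, FDR = 0.452), beside 1.02 (SE 0.163) and 0.27 (SE 0.069) without it. Within groups Srxn1 had r of -0.023 in LD (permutation p = 0.939, rho = -0.077, p = 0.798) and -0.001 in ADV (permutation p = 0.998, rho = -0.168, p = 0.536) with the score. Txnrd1 had r of -0.195 in LD (permutation p = 0.505, rho = -0.288, p = 0.319) and 0.417 in ADV (permutation p = 0.109, rho = 0.256, p = 0.337), and -0.058 and 0.426 without the 2 farthest mice.

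The 3 genes most like each member were found by Pearson r of log2 CPM over all 30 libraries after subtraction of the group means. Members shared neighbours in few cases. Hmox1 was among the 3 for Gclc and Gclc among the 3 for Hmox1 (r = 0.761), beside Ctdp1 (0.775) and Rasa3 (0.75) for Hmox1. Slc19a2, a thiamine transporter, was the closest gene of both Gclc (0.762) and Txnrd1 (0.751). Mafg, which encodes a small MAF partner of NRF2, came next for Txnrd1 (0.737). Srxn1 lay closest to Rcan1, a regulator of calcineurin (0.866), Xirp1, a protein of the myotendinous junction and of damaged fibers (0.857), and Hbegf, a growth factor (0.854). All 3 of these were higher in ADV by edgeR, with log2 fold changes of 1.28, 1.41 and 0.67 and FDR of 0.00384, 0.00399 and 0.0282.

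Nfe2l2 lay closest to Irs2 (0.795), Ccn2 (0.785) and Otud1 (0.775). Within groups r was 0.181 in LD and 0.895 in ADV for Irs2, 0.615 and 0.903 for Ccn2, and 0.343 and 0.872 for Otud1. Differences in r between the groups were not tested. Nqo1 lay closest to Ifngr2 (0.703, from 0.19 in LD and 0.907 in ADV), Abra (0.701) and Dubr (0.668), and Gclm to Emb (0.802) and Snap29 (0.688). Keap1 was nearest to Egln2 (0.899), Selenow (0.894) and Gsk3a (0.887). Sod2 followed genes of mitochondrial energy metabolism, Dlat (0.952) and Pdha1 (0.932) of pyruvate dehydrogenase and Ndufs1 (0.933) of complex I. Cat lay nearest to Lgals4 (0.846) and to Slc27a1 (0.823) and Acsl1 (0.814), which bring fatty acids into the cell and activate them.

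Beyond the 10 members, 101 other genes of the pathway and its neighbours were listed, and 96 of them were tested. In ADV 10 were higher and 6 lower (edgeR, FDR under 0.05), 67 had a fitted fold change above 1 and 29 below, and the median log2 fold change was 0.057, beside 0.003 over all genes tested. DESeq2, the tool of the study, called 15 higher and 9 lower. The 16 called genes are 16 of 96, beside 10.8% of all genes called in either direction.

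Among 11 tested regulators and partners of NRF2, Maff, a small MAF protein, was higher and Cul3, which carries KEAP1-bound NRF2 to ubiquitination, lower. Maff rose from 1.53 ± 0.45 to 2.34 ± 0.976 FPKM (log2 fold change 0.60, edgeR FDR = 0.0389), with 7 of 16 ADV mice above the LD maximum. Cul3 went from 47.3 ± 3.44 to 41.7 ± 5 FPKM (log2 fold change -0.196, edgeR FDR = 0.0269), and to -0.087 with an FDR of 0.226 after the GC trend was removed. Maff lost its call in 9 of the alternatives, with FDR from 0.0503 in limma on log2(FPKM + 1) to 0.35 with the clock gene score, and in 13 of 30 fits that left out 1 mouse. Sqstm1, which encodes the autophagy adaptor that binds KEAP1 and was the most abundant of this list, was at 263 ± 31.1 and 292 ± 32.6 FPKM (edgeR, FDR = 0.169).

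Osgin1, an oxidative stress induced growth inhibitor and a target of NRF2, had the lowest FDR of the 96 genes. It ran from 3.66 through 5.69 to 9.59 FPKM in LD and from 5.08 through 9.78 to 22.1 in ADV, with 15 of 16 ADV mice above the LD median, and the log2 fold change was 0.74 (SE 0.157, edgeR FDR = 0.0048). Nqo2, the other gene called in the detoxification list of 14, was lower (-0.182, edgeR FDR = 0.0243), and Akr1b1, the most abundant, was at 85.9 ± 4.22 and 90.3 ± 7.62 FPKM (FDR = 0.311).

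In thioredoxin, peroxiredoxin and methionine sulfoxide reductase genes, where sulfiredoxin and thioredoxin reductase act, 3 of 18 were higher and 1 lower by edgeR. Txn1, the substrate of the reductase, rose by 0.13 on the log2 scale (FDR = 0.0431), Prdx5, a peroxiredoxin of mitochondria and peroxisomes, by 0.21 (FDR = 0.0217), and Msra by 0.20 (FDR = 0.0129). Msrb3 fell by 0.14 (FDR = 0.0294). Txnip, the most abundant of the list, was at 214 ± 76.8 FPKM in LD and 196 ± 58.6 in ADV (edgeR, FDR = 0.617).

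Of 14 tested genes of glutathione synthesis and use, Glrx5, a glutaredoxin of iron-sulfur cluster assembly, was higher (log2 fold change 0.25, edgeR FDR = 0.0142) and Glrx2 lower (-0.184, FDR = 0.0142). Of 15 glutathione transferases Mgst3 was higher and the most abundant, at 101 ± 9.94 and 117 ± 12 FPKM (log2 fold change 0.20, edgeR FDR = 0.0171). Gstt2, at 1.44 ± 0.527 and 0.96 ± 0.22 FPKM, was lower (-0.604, FDR = 0.0153). Gpx4, the most abundant glutathione gene, was at 186 ± 10.8 and 206 ± 22.9 FPKM (edgeR, FDR = 0.0561).

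Of 9 heme and iron genes Ftl1, the ferritin light chain, was higher (0.23, edgeR FDR = 0.0355) and Tfrc, the transferrin receptor, lower (-0.554, FDR = 0.0249), while Fth1, the ferritin heavy chain, was at 761 ± 60.5 and 801 ± 102 FPKM (FDR = 0.516). Of 6 other superoxide and metal genes Sod1, the cytosolic dismutase (0.13, edgeR FDR = 0.0469), and Ccs, its copper chaperone (0.22, FDR = 0.0136), were higher, and Park7 was at 348 ± 36 and 362 ± 41.7 FPKM (FDR = 0.683). Of 9 genes of NADPH supply 0 were called by edgeR in either direction (3 at an unadjusted p under 0.05, and 1 called by DESeq2), and the most abundant, Idh2, was at 183 ± 85.7 and 235 ± 58.7 FPKM (FDR = 0.228). After removal of the GC trend 5 of the 96 genes were higher and 2 lower, and 10 of the called genes lost their call: Maff, Cul3, Glrx2 (log2 fold change -0.079, edgeR FDR = 0.384), Glrx5 (FDR = 0.0541), Prdx5 (0.095, FDR = 0.319), Msrb3, Ftl1, Tfrc, Nqo2 (-0.085, FDR = 0.327) and Ccs. Without LD mice 23 and 33 and ADV mouse 24, 7 lost it, Maff, Cul3, Glrx5, Txn1, Prdx5, Msra and Msrb3, with edgeR FDR from 0.0549 to 0.103. In the 30 fits that left out a single mouse Sod1 lost its call in 21, Txn1 in 17, Maff in 13, Ftl1 in 10, and Cul3 and Msrb3 in 1 each.

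**Figure D5:**
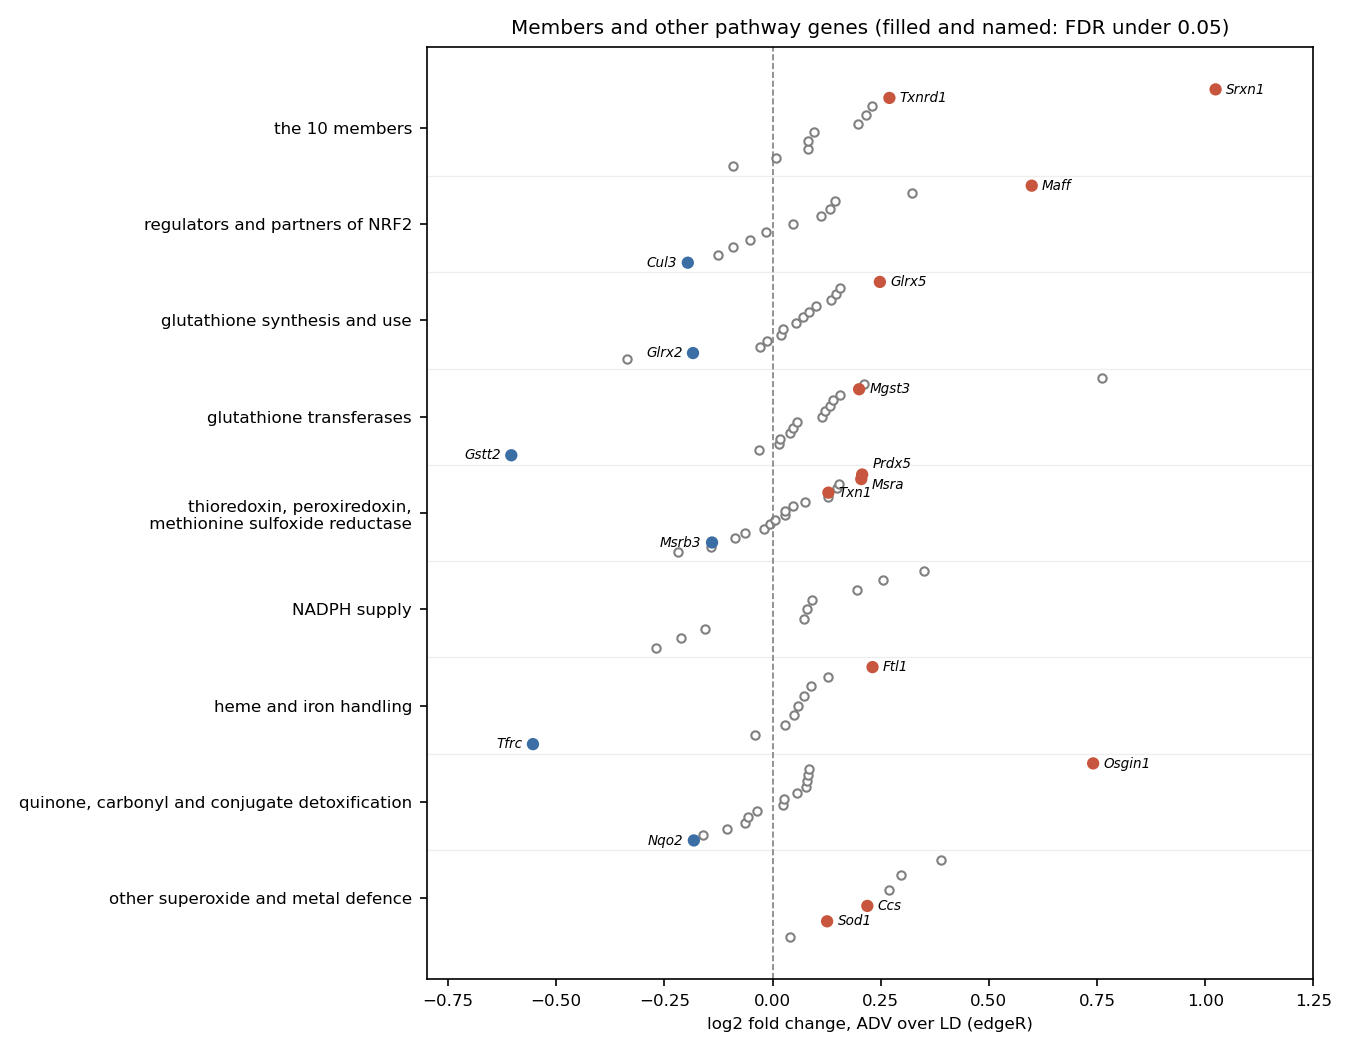
Log2 fold change of ADV over LD (edgeR) for the 10 members and the 96 tested genes of 8 pathway lists, 1 point per gene, filled and named where the FDR was under 0.05, red for higher and blue for lower. Srxn1 (1.02) lies farthest to the right, followed among called genes by Osgin1 (0.74) and Maff (0.60), and Gstt2 (-0.604) farthest to the left.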

How the data were processed

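Poly(A)-enriched, stranded RNA of 30 gastrocnemius muscles was sequenced in paired-end reads by the authors, trimmed with Trimmomatic, mapped to GRCm39 with STAR 2.7.10a and counted on exons of UCSC known canonical transcripts with HOMER 4.11 (versions per the submitters' processing notes). The authors deposited estimated counts, in which each mate counts as part of a read so that 14.8% of values were not whole, and FPKM values, which the authors made from the same counts. The strand option of the counting is not given in the sources used here. The tables hold 57186 rows; no row without a gene was used.

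Counts were rounded and tested with edgeR 4.0.16 (quasi-likelihood, robust, TMM) in R 4.3.3 over 12030 genes, with limma 3.58.1 and DESeq2 1.42.0 as alternatives. Rank sums on FPKM, spread and correlations were tested two-sided with 100000 permutations (scipy 1.17.1). The log2 CPM used a prior count of 2. GC content was removed with a natural spline of 4 degrees of freedom. Other alternatives were the choice of filter, size factors, summed rows, the label number as a block, a 1.3-fold limit, a score of clock genes as a covariate and leaving out each library; 8 were added after the data were seen, among them the removal of named mice and the GC trend in correlations. Named genes were the 10 members, in each list the genes with an FDR under 0.05 (at most 4) and the most abundant gene, and the 3 genes most like each member, of which 1 for Gclm is not reported here. Members and lists were chosen with earlier results of these data known. Libraries held 18875468.5 to 28512674 counted reads, so counting error was small for the members, whose mean was between 192 and 5764 reads. In data simulated for the comparison of ADV with LD, with 200 of 12030 genes changed, edgeR made 192 calls, 182 of them right. It recovered 99 of 100 genes changed by 1 on the log2 scale and 83 of 100 changed by 0.5. Smaller changes were not simulated, and every member but Srxn1 had a fitted change of 0.27 or less in size. Recovery at such sizes is therefore not known.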

Additional observations from a re-analysis of the deposited data

How the results depend on the processing

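Srxn1 and Txnrd1 kept their call and direction in all alternatives but 1, and in all 30 fits that left out 1 mouse. Apart from the 1.3-fold limit, which Txnrd1 (1.21-fold) lies under, the exception was the clock gene score as a covariate, with 0 members, 0 and 0 pathway genes and 0 of 12030 genes called, where Hmox1 (0.22), Gclm (-0.004), Sod2 (-0.035) and Gstt2 (0.12) changed sign. Keap1 changed sign with the GC trend removed (-0.012) and Hmox1 without LD mice 23 and 33 and ADV mouse 24 (0.059). Without each library in turn, 2 to 3 members, 6 to 11 higher and 4 to 9 lower pathway genes and 828 to 1527 genes were called. The count of 828 came without LD mouse 28, and 6 higher pathway genes without ADV mouse 24, 25 or 33 or LD mouse 27 or 32. Hmox1 then ran from -0.194 to 0.055 and Gclm from -0.037 to 0.044, with a change of sign in 1 and 8 of these fits.

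Counts of all genes called, of higher and of lower pathway genes were 601, 5 and 2 with no filter, 584, 5 and 2 with the GC trend removed (3 members called), and 243, 2 and 2 with a 1.3-fold limit (1 member). Without LD mice 23 and 33 and ADV mouse 24 they were 772 and, of the higher ones, 6. The label number as a replicate block gave 483, 4 and 1, and the same 28 libraries without the block 602, 5 and 2. The block changed no call of a member. The numbers were not taken as pairs, since the deviations of 14 same-numbered mice correlated from -0.26 to 0.43, with 6 over 0.1 and 3 mice closest to their own number. With the GC trend removed, 1 member pair was called in each group and 5 relations with marker lists, all by r. By rho, on log2 CPM without that removal, 3 relations with the lists were called. The causes were not tested.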
